A study of Mus musculus with 10 samples.

Results

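The respiratory chain and ATP synthase of the mouse retina were followed here gene by gene, in light-damaged and control tissue. Members were the rows of the count table whose mouse symbol starts with mt-Nd, mt-Co, mt-Cytb, mt-Atp, Ndufa, Ndufb, Ndufc, Ndufs, Ndufv, Sdha to Sdhd, Uqcr, Cox4 to Cox8 or Atp5, with 5 pseudogene rows left out. This gave 108 of 19999 genes. Of these, 13 are subunits encoded by mitochondrial DNA, 82 are subunits encoded by nuclear genes, and 13 are assembly or regulatory factors that share the prefixes (Ndufaf1 to Ndufaf8, Sdhaf1 to Sdhaf4 and Atp5s). All passed the filter on low counts except Cox6a2, the heart and muscle form of a cytochrome c oxidase subunit, so 107 were tested.

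Retinas came from BALB/c mice, an albino strain, and the series compares a light damage model (5 libraries) with controls (5 libraries). Both groups are named as vehicle in their library names, and no genotype beyond the strain is given. Light dose, time after exposure, age and sex are not stated in the labels, nor whether each library is a separate animal, so p-values reflect only how these libraries vary, which may be partly technical. Libraries made with the compound A74, which the design text names, were not analysed here.

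Each library held between 14652535 and 20699236 counts. The labelled tissue carried its markers: the summed level of 20 rod genes lay between 74950 and 103900 CPM (counts relative to a library's total, scaled by TMM) in light damage libraries and between 80150 and 129100 CPM in controls. Light damage replicates 1 and 2 stood apart. They held 17174 and 20414 counts of Xist, against 1 to 9 in every other library, and their summed level of 9 lens genes reached 7520 and 4015 CPM, while no control exceeded 31.4 CPM. Counts of called subunits and of called listed mitochondrial genes are therefore also given without these libraries. In whole tissue, fewer cells of a type and less RNA per cell cannot be told apart.

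The respiratory chain passes electrons from NADH (complex I) and succinate (complex II) through ubiquinone, complex III and cytochrome c to oxygen at complex IV, and complex V uses the resulting proton gradient to make ATP. Complexes I, III, IV and V combine membrane subunits made inside the mitochondrion with nuclear-encoded subunits that are imported, whereas complex II is wholly nuclear-encoded. Photoreceptors hold most of the retina's mitochondria in their inner segments and are among the body's heaviest consumers of oxygen.

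Nuclear-encoded subunit transcripts were slightly but widely higher in light-damaged retina, and mitochondria-encoded transcripts were not called in either direction. Of 81 nuclear-encoded subunits tested, 22 rose (27.2%) and 0 fell at an edgeR adjusted p under 0.05, while over all 16852 genes tested 5.32% rose and 7.85% fell. The median log2 fold change was 0.19 over the nuclear-encoded subunits and 0.00 over all genes, and it was above 0 for 79 of the 81 nuclear-encoded subunits (97.5%) and for 50.3% of all genes. The called changes were small, between 1.13-fold and 1.32-fold. Of the 13 mitochondria-encoded subunits, 0 rose and 0 fell, 0 had an unadjusted p under 0.05 in edgeR, and DESeq2 called 0 with 1 at an unadjusted p under 0.05. Their median log2 fold change was -0.03, with 5 above 0 and 8 below. The assembly and regulatory factors gave 0 calls among 13, with a median log2 fold change of 0.05.

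Raw shares of each library are given for each class in turn. Nuclear-encoded subunits together took 0.892%, 0.895%, 0.925%, 0.899% and 0.860% of the counts in light damage libraries 1 to 5, and 0.825%, 0.727%, 0.753%, 0.832% and 0.764% in control libraries 1 to 5. Every light damage library was above every control, with means of 0.895% ± 0.0232 in light damage and 0.780% ± 0.0461 in control (± SD, n = 5 per group). Mitochondria-encoded subunits took 3.89%, 3.82%, 3.72%, 3.89% and 3.43% in light damage libraries 1 to 5, and 4.73%, 3.26%, 3.12%, 3.92% and 3.08% in control libraries 1 to 5. Here the light damage libraries fell inside the range of the controls, at 3.75% ± 0.194 in light damage and 3.62% ± 0.707 in control (± SD, n = 5 per group). Controls 1 and 4 were at or above the light damage libraries and controls 2, 3 and 5 below all of them. The ratio of mitochondria-encoded to nuclear-encoded counts overlapped between the groups, at 3.98 to 4.36 in light damage and 4.03 to 5.73 in control. These sums follow a few abundant genes and were given no test. Whether the change differed between the classes was not tested either.

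**Figure D1:**
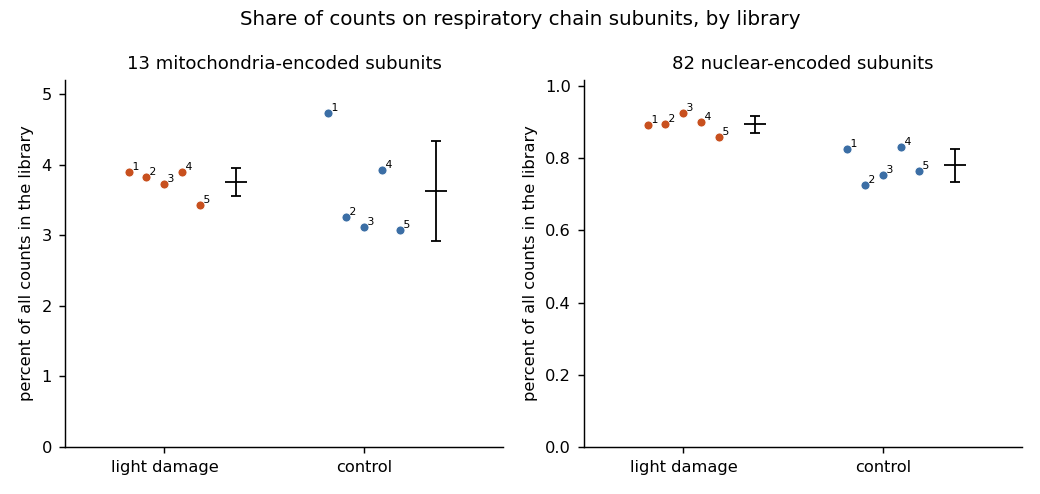
Percent of each library's counts on the 13 mitochondria-encoded subunits (left) and the 82 nuclear-encoded subunits (right), 1 dot per library with its replicate number, light damage left of control, with mean and SD as bars. The nuclear share was above all controls in every light damage library, while the mitochondrial share overlapped and spread from 3.08% to 4.73% in the controls.

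The same controls stood high on both genomes. Control 4 and control 1 had the highest nuclear-encoded score of their group (the mean over tested subunits of centred log2 CPM), 0.07 and 0.03, while controls 2, 3 and 5 lay at -0.24, -0.19 and -0.17. The light damage libraries lay between 0.02 and 0.13. Of the 81 tested nuclear-encoded subunits, 41 had their lowest value of all 10 libraries in control 2, 27 in control 3 and 11 in control 5. Control 1 nevertheless held the highest value for 9 and control 4 for 11. Such positions were not counted over all genes. The groups did not overlap for 11 of the 81 (13.6%), against 9.79% of all genes tested, so the separation of single genes was near the background. What set controls 1 and 4 apart from controls 2, 3 and 5 was not tested.

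Spread differed between the groups as well. The coefficient of variation was lower over the light damage libraries than over the controls for 76 of the 81 nuclear-encoded subunits, with medians of 4.92% in light damage and 12.3% in control. It was lower in light damage for 12 of the 13 mitochondria-encoded subunits, with medians of 7.24% in light damage and 33.9% in control. This is a description and was given no test. Spread was not compared over all genes, so the difference cannot be called particular to the subunits.

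**Figure D2:**
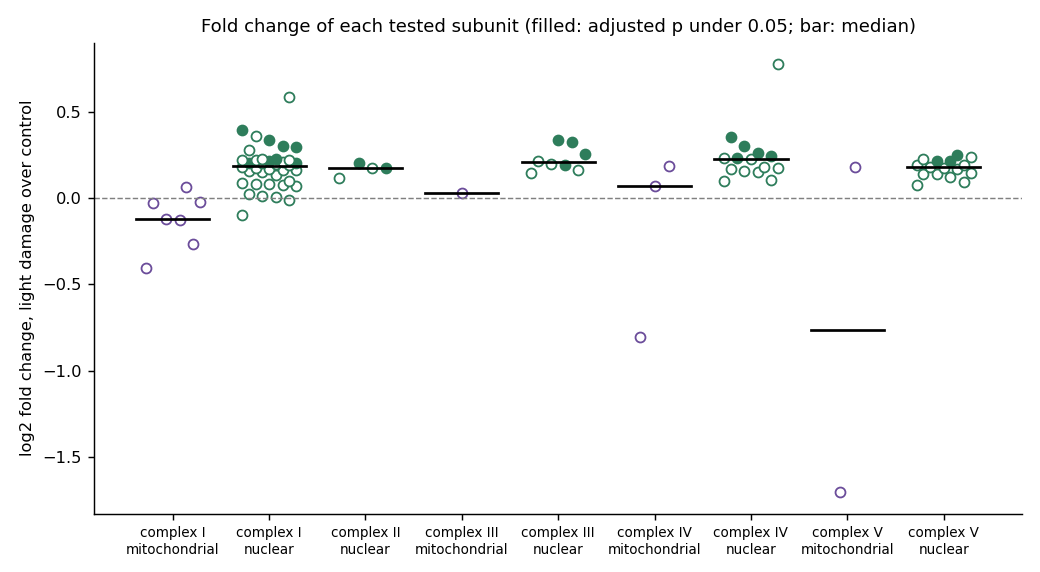
Log2 fold change, light damage over control, of each tested subunit by complex and genome, with filled dots for genes at an adjusted p under 0.05 and a bar at the median. Filled dots occur in the nuclear-encoded columns of all 5 complexes and in no mitochondria-encoded column.

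Complex III, the cytochrome bc1 complex, had calls in 4 of its 8 nuclear-encoded subunits. Uqcrfs1, the Rieske iron-sulfur protein that takes electrons from ubiquinol, gave the lowest p of all members. It stood at 98.4, 91.7, 98.0, 101 and 96.2 CPM in light damage libraries 1 to 5 and at 84.9, 81.1, 78.3, 82.8 and 80.2 CPM in control libraries 1 to 5. The groups did not overlap and the log2 fold change was 0.25 (SE 0.05, edgeR adjusted p = 0.00571). Uqcr11, a small accessory subunit, had a mean of 32.9 ± 2.39 CPM in light damage, against 26.0 ± 3.00 CPM in control (± SD, n = 5 per group), and a log2 fold change of 0.34 (edgeR adjusted p = 0.0159). Control 4, at 29.7 CPM, was above light damage 5, at 29.1 CPM. Uqcr10, another small subunit, and Uqcrc2, a core protein, also rose, by log2 fold changes of 0.32 and 0.19 (edgeR adjusted p = 0.0216 and 0.0345). The other core protein, Uqcrc1, had a log2 fold change of 0.16 and did not pass (edgeR adjusted p = 0.102).

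Complex II, succinate dehydrogenase, had calls in 2 of its 4 subunits. Sdhb, the iron-sulfur subunit, stood at 68.7, 66.3, 66.4, 62.1 and 63.4 CPM in light damage libraries 1 to 5 and at 58.1, 53.6, 58.0, 61.1 and 59.1 CPM in control libraries 1 to 5. Its groups did not overlap, although light damage 4 and control 4 were close, and the log2 fold change was 0.17 (SE 0.05, edgeR adjusted p = 0.0439). Sdhd, a membrane anchor, had a log2 fold change of 0.20 (edgeR adjusted p = 0.0480). Neither Sdhb nor Sdhd passed with GC content and length trends removed. Sdha, the flavoprotein with the active site, had a mean of 427 ± 7.27 CPM in light damage, against 394 ± 15.1 CPM in control (± SD, n = 5 per group), without overlap. Its log2 fold change of 0.12 did not pass (edgeR adjusted p = 0.156). Scores over the tested subunits did not overlap between the groups for complexes II and III, and overlapped for I, IV and V.

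Complex I, NADH dehydrogenase, had calls in 8 of the 38 nuclear-encoded subunits tested that carry its prefix. Complexes were set by symbol prefix throughout, so Ndufa4 and Ndufa4l2 are counted here by name alone. All 8 called are accessory subunits: Ndufa2, Ndufb3, Ndufa9, Ndufv3, Ndufb7, Ndufa5, Ndufa8 and Ndufs6, in order of p. Ndufa2 had the largest log2 fold change of all called members, 0.40 (SE 0.08, edgeR adjusted p = 0.00724). It stood at 42.1, 48.7, 46.5, 45.4 and 36.3 CPM in light damage libraries 1 to 5 and at 32.8, 30.9, 31.5, 38.1 and 33.2 CPM in control libraries 1 to 5. Control 4 was above light damage 5, and the other light damage libraries were above all controls. Ndufb3 had a mean of 42.5 ± 2.12 CPM in light damage, against 33.6 ± 4.16 CPM in control (± SD, n = 5 per group) without overlap, and a log2 fold change of 0.34 (edgeR adjusted p = 0.0123). The 7 nuclear-encoded core subunits, among them those that carry the flavin and the iron-sulfur clusters, were not called. Ndufv1, which binds NADH, came nearest, with a log2 fold change of 0.16 (edgeR adjusted p = 0.0522) and no overlap of the groups. Ndufs7 was lowest among them, with a log2 fold change of 0.02 (SE 0.08). Both subunits of the 81 below 0, Ndufb2 at -0.10 and Ndufb5 at -0.01, belong to complex I and did not pass. They are named here because of their values.

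Complex IV, cytochrome c oxidase, had calls in 5 of 15 nuclear-encoded subunits tested: Cox5b, Cox4i2, Cox4i1, Cox7c and Cox7b. Cox5b, a zinc-binding subunit on the matrix side, stood at 108, 102, 111, 106 and 99.8 CPM in light damage libraries 1 to 5 and at 93.1, 74.5, 83.5, 96.7 and 92.2 CPM in control libraries 1 to 5. The groups did not overlap and the log2 fold change was 0.26 (SE 0.07, edgeR adjusted p = 0.0207). Both forms of subunit 4, which regulates the enzyme, rose: Cox4i1, the general form, by a log2 fold change of 0.24 (edgeR adjusted p = 0.0342), and Cox4i2, the form tied to low oxygen and lung, by 0.35 (edgeR adjusted p = 0.0230). Per kilobase of transcript Cox4i1 remained far above Cox4i2, at 382 against 33.3 CPM per kb in light damage and 323 against 26.1 CPM per kb in control.

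The tissue forms of the other oxidase subunits were at low levels. Heart and muscle forms Cox7a1 and Cox8b averaged 1.16 ± 0.196 and 0.782 ± 0.301 CPM in light damage, against 1.03 ± 0.138 and 0.450 ± 0.342 CPM in control (± SD, n = 5 per group), and neither passed (edgeR adjusted p = 0.634 and 0.258). Cox6a2 stood between 0.00 and 0.57 CPM in light damage and between 0.13 and 0.48 CPM in control. Their general partners were higher by far, with Cox8a at 181 ± 13.1 CPM in light damage, against 155 ± 25.0 CPM in control, and Cox6a1 at 163 ± 2.24 CPM in light damage, against 146 ± 18.3 CPM in control (± SD, n = 5 per group). The summed level of 6 skeletal muscle genes was 8.44 to 10.2 CPM in light damage and 7.72 to 11.1 CPM in control. Ndufa4l2, the low-oxygen relative of Ndufa4, stood at 5.20, 4.14, 1.66, 1.55 and 1.28 CPM in light damage libraries 1 to 5 and between 1.59 and 2.36 CPM in control. Its high values were those of light damage 1 and 2, which held both lens RNA and high Xist counts, so these traits cannot be told apart. The log2 fold change of Ndufa4l2 was 0.59 over all libraries and -0.29 without light damage 1 and 2, neither past the threshold.

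Complex V, the ATP synthase, had calls in 3 of 16 nuclear-encoded subunits tested. Atp5g3, which codes for the rotating membrane ring subunit c, stood at 157, 159, 157, 149 and 154 CPM in light damage libraries 1 to 5 and at 138, 123, 121, 143 and 128 CPM in control libraries 1 to 5. The groups did not overlap and the log2 fold change was 0.25 (SE 0.06, edgeR adjusted p = 0.0114). Its relatives Atp5g1 and Atp5g2, which code for the same mature protein, had log2 fold changes of 0.07 and 0.12 and did not pass (edgeR adjusted p = 0.521 and 0.253). The difference between the 3 genes was not tested. Atp5a1, the alpha subunit of the catalytic head, had a mean of 835 ± 19.1 CPM in light damage, against 720 ± 42.6 CPM in control (± SD, n = 5 per group), and a log2 fold change of 0.21 without overlap (edgeR adjusted p = 0.0286). Its catalytic partner Atp5b, the most abundant nuclear-encoded member per kilobase, had a log2 fold change of 0.14 and did not pass (edgeR adjusted p = 0.194).

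**Figure D3:**
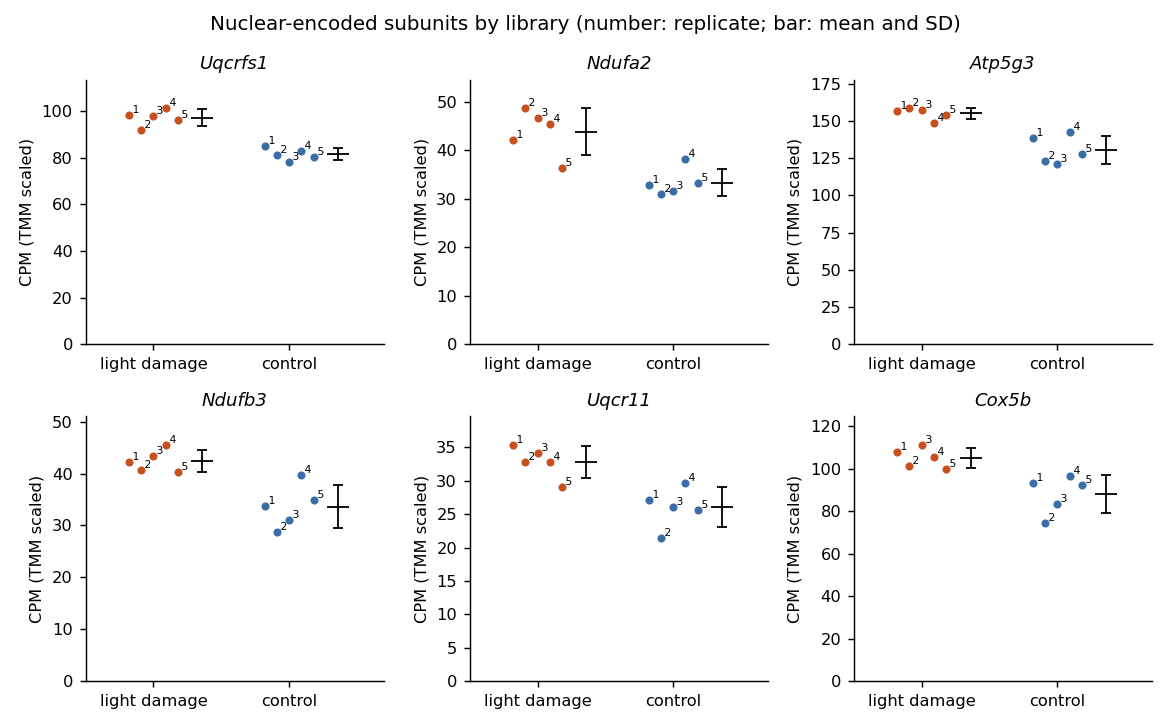
CPM of 6 nuclear-encoded subunits by library, light damage left of control, each dot with its replicate number, with mean and SD as bars. Uqcrfs1, Atp5g3, Ndufb3 and Cox5b show no overlap, while for Ndufa2 and Uqcr11 control 4 was above light damage 5.

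These calls depended on the libraries included. When each library was left out in turn, all 22 called subunits kept a positive log2 fold change, but the number of nuclear-encoded subunits called ran from 5 without light damage 3 to 40 without control 1. It was 8 without light damage 1, 2 or 4 or control 3, 9 without control 2 and 7 without control 5. It was 38 without control 4 and 22 without light damage 5. The share of all genes that rose moved too, from 2.34% without light damage 3 to 7.91% without control 1. The call held in all 10 of these fits for 5 genes, Uqcrfs1, Ndufa2, Atp5g3, Ndufb3 and Uqcr11. Without both light damage 1 and 2, only Uqcrfs1 remained called (edgeR adjusted p = 0.0421), where 0.782% of all genes rose, and the median log2 fold change of the nuclear-encoded subunits was 0.17.

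Longer transcripts had lower fold changes. Across the 81 nuclear-encoded subunits, Spearman's rho between log2 fold change and transcript length was -0.48, and across 14170 protein-coding genes it was -0.27. Genes share libraries and are not independent replicates. The subunits are short, with a median transcript of 1001 bases, against 3482 bases for protein-coding genes. With the trends of every library against GC content and length taken out, 24 subunits rose, 20 of them among the 22, while 6.54% of all genes rose. The median log2 fold change over the nuclear-encoded subunits was 0.15. The calls lost were Sdhb and Sdhd (edgeR adjusted p = 0.152 and 0.0931), the only calls of complex II.

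The letters before the starts of the called genes are shown for the 4 whose calls held in every fit that left out a library and that the sequence table holds. Each run is 200 bases directly before the start site, 5′ to 3′ on the gene's strand, from RefSeq on GRCm38.p6, and capitals mark matches to the motifs searched. They lie at chr13:30545317-30545516 (Uqcrfs1, minus strand), chr10:80406822-80407021 (Uqcr11, minus strand), chr2:73911327-73911526 (Atp5g3, minus strand) and chr1:58586197-58586396 (Ndufb3, plus strand).
Uqcrfs1: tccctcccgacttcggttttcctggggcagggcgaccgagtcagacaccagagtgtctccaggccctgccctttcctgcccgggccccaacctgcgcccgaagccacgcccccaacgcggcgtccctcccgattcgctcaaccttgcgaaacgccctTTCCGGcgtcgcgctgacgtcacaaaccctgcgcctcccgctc
Uqcr11: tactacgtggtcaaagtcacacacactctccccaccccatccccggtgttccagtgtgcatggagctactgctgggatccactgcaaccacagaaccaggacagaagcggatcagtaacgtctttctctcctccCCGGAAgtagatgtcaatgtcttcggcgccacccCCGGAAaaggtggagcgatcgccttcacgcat
Atp5g3: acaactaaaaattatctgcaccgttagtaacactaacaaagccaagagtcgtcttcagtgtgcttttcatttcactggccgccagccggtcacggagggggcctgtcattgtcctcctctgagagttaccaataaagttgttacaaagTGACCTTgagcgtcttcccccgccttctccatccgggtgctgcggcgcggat
Ndufb3: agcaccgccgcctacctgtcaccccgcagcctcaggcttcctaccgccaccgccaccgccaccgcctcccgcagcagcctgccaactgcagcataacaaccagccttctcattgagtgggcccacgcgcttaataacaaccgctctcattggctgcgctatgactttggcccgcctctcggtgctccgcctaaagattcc

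In these runs Uqcrfs1 holds 1 match and Uqcr11 holds 2 to CCGGAA, the core read by ETS factors such as GABPA, and Atp5g3 holds 1 to AAGGTCA, read by estrogen-related receptors. Ndufb3 holds none of the motifs searched. The table matched 66 of the 82 nuclear-encoded subunits by symbol, with 71 start windows, and 17 of the 22 called. Searched on both strands of the 250 bases before the start, CCGGAA stood in 28.2% of the subunits' windows and in 12.0% of all 32851 windows. GCATGCGC, read by NRF1, stood in 11.3% of the subunits' windows and 2.3% of all. AAGGTCA stood in 7.0% and 4.1%, AAGATGGC, read by YY1, in 1.4% and 1.6%, and GGGCGG, read by Sp factors, in 32.4% and 32.7%. Among matched genes CCGGAA stood before 7 of 17 called and 13 of 49 not called, and GGGCGG before 4 and 19. GCATGCGC stood before 3 called and 5 not called, AAGGTCA before 2 and 3, and AAGATGGC before 0 and 1. These splits were not tested. A match is a run of letters, not a shown binding site.

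Mitochondria-encoded transcripts fell into 2 levels. The 7 abundant ones, mt-Co1, mt-Cytb, mt-Nd1, mt-Nd2, mt-Nd4, mt-Nd5 and mt-Nd6, stood between 1411 and 9059 CPM per kilobase of transcript in light damage and between 1535 and 8616 in control. The other six, mt-Co2, mt-Co3, mt-Atp6, mt-Nd3, mt-Nd4l and mt-Atp8, stood between 11.3 and 184 CPM per kilobase in light damage and between 37.4 and 321 in control. Subunits of 1 enzyme stood on both sides of this gap, as mt-Co1 and mt-Co2 do, although mitochondrial DNA is transcribed as long precursors that hold many genes.

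Levels of the abundant mRNAs overlapped between the groups. mt-Co1, the catalytic subunit of complex IV with its haem and copper centres, stood at 15161, 14341, 13586, 14387 and 12503 CPM in light damage libraries 1 to 5 and at 16579, 12145, 11785, 14148 and 11902 CPM in control libraries 1 to 5. The log2 fold change was 0.07 (SE 0.10, edgeR adjusted p = 0.672). mt-Cytb, the cytochrome b of complex III, had a mean of 8081 ± 585 CPM in light damage, against 7911 ± 2023 CPM in control (± SD, n = 5 per group), and a log2 fold change of 0.03 (SE 0.14, edgeR adjusted p = 0.907). Of the complex I subunits, mt-Nd1 had a log2 fold change of 0.06 (SE 0.15), mt-Nd2 of -0.03 (SE 0.17), mt-Nd4 of -0.02 (SE 0.15) and mt-Nd5 of -0.13 (SE 0.11). mt-Nd6, the one subunit read from the opposite strand, had a log2 fold change of -0.12 (SE 0.20). In each of these 7 genes control 1 held the highest value of all 10 libraries and control 3 the lowest. Their coefficient of variation was 4.14% to 7.24% in light damage and 15.5% to 33.9% in control.

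**Figure D4:**
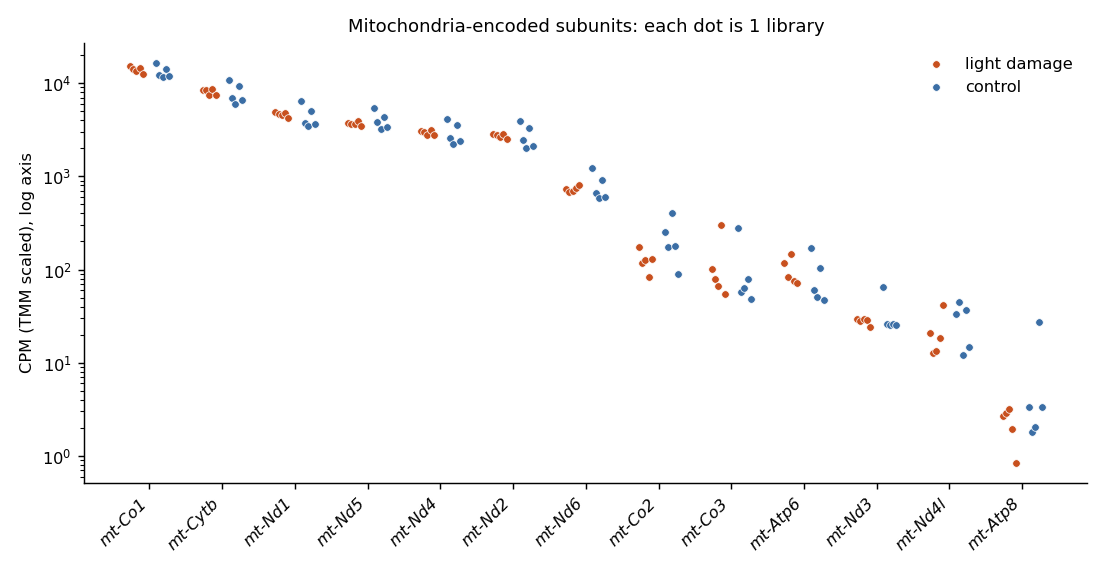
CPM on a log axis of the 13 mitochondria-encoded subunits, ordered by control mean, with 1 dot per library and light damage left of control. The 7 abundant genes overlap between groups with a wider control spread, and single libraries stand apart for mt-Co3, mt-Nd3 and mt-Atp8.

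The low level and wide scatter of most of the other six coincided with copies of their sequence in the nuclear genome. A stretch of mitochondrial DNA inserted in chromosome 1 is annotated as pseudogenes, several of which have counts of their own in the table. Of the 50-base windows of mt-Co2, mt-Co3, mt-Atp6, mt-Nd4l and mt-Nd3, 100%, 99.9%, 99.5%, 98.8% and 98.0% also stand in such a gene. The share standing in any other annotated gene was 62.2% for mt-Nd4, 51.1% for mt-Co1, 8.19% for mt-Nd2, 7.61% for mt-Nd5 and 0% for mt-Cytb, mt-Nd1, mt-Nd6 and mt-Atp8. The pseudogenes align without a difference over 681 bases to mt-Co2 (Gm28661), 783 to mt-Co3 (Gm28437), 678 to mt-Atp6 (Gm10925), 294 to mt-Nd4l (Gm10222) and 876 to mt-Nd4 (Gm28439). With Gm28438 (mt-Nd3) and Gm29216 (mt-Co1), these copies held 0.0148% to 0.0248% of counts in light damage libraries and 0.0134% to 0.0407% in controls. Gm10925 was the highest of them, with a light damage mean of 59.5 CPM and a control mean of 88.7 CPM. For mt-Co1 these means were 13996 and 13312 CPM. The counts on the copies were thus small beside those of the abundant mRNAs, but not beside all of the less abundant ones. For mt-Atp6, the gene that Gm10925 copies, the light damage mean was 98.6 CPM and the control mean 86.8 CPM. Gm28438 lay further below its gene. Its light damage mean was 3.39 CPM beside 28.0 CPM for mt-Nd3, and its control mean 2.84 CPM beside 33.6 CPM. Why the less abundant mRNAs stood low was not tested.

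The 3 pairs printed here show how little separates a read of the mitochondrial mRNA from one of its copy. Each run is 90 bases of the transcript strand from GENCODE M21 on GRCm38, and capitals mark bases that differ within the pair. The first pair lies at chrM:7013-7102 and chr1:24615476-24615565, the second at chrM:9459-9548 and chr1:24613030-24613119, and the third at chrM:6381-6470 and chr1:24616108-24616197, with the mitochondrial member on the plus strand and the copy on the minus strand.
mt-Co2: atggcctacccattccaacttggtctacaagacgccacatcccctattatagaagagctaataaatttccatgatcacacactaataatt
Gm28661: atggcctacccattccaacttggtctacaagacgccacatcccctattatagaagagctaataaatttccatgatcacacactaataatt
mt-Nd3: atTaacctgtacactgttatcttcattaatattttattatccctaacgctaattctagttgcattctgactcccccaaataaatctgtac
Gm28438: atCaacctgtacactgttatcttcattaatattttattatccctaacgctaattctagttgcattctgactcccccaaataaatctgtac
mt-Co1: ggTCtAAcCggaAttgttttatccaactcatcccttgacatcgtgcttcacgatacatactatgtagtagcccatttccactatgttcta
Gm29216: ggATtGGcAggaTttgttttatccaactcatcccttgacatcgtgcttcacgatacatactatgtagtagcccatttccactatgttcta

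The first pair is identical, the second differs by 1 base over its whole 345 aligned bases, and the third differs by 6 bases, all at the 5′ end where the copy begins, over 492. A read from the identical stretches cannot be assigned by its letters, and the way such reads were shared out is not stated in the sources used here. Values of these mRNAs are therefore uncertain in level as well as in change.

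Single libraries stood far from the rest for some of them. mt-Co3 stood at 102, 80.1, 66.3, 300.1 and 54.7 CPM in light damage libraries 1 to 5 and at 279, 57.2, 62.8, 78.9 and 48.0 CPM in control libraries 1 to 5, so that light damage 4 and control 1 were each far above the rest. mt-Co2 stood at 173, 117, 128, 83.0 and 129 CPM in light damage and at 253, 175, 403, 180.0 and 88.7 CPM in control, with control 3 highest. Its log2 fold change was -0.81 (SE 0.39) and did not pass (edgeR adjusted p = 0.202). The 5 mRNAs with over 90% of windows shared had control coefficients of variation between 50.7% and 93.1%. With each copy's counts added to its gene, still 0 of the mitochondria-encoded subunits passed. mt-Atp8, which overlaps mt-Atp6, has no annotated copy but held 0.83 to 3.17 CPM in light damage and 1.80 to 3.37 CPM in 4 controls, with control 4 at 27.5 CPM. Its log2 fold change of -1.71 (SE 0.89, edgeR adjusted p = 0.237) was -0.19 without control 4.

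**Figure D5:**
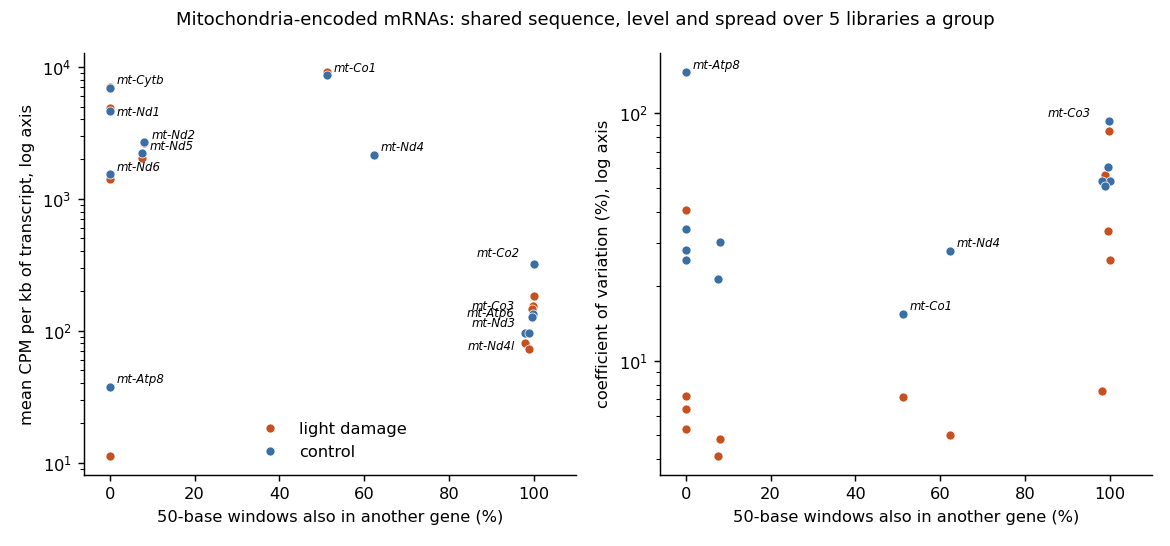
Mean CPM per kilobase (left) and coefficient of variation over 5 libraries (right), on log axes, of the 13 mitochondria-encoded mRNAs against the percent of their 50-base windows that stand in another gene. The 5 mRNAs near 100% shared lie between 72.2 and 184 CPM per kb in light damage and between 95.3 and 321 in control, and mt-Atp8 is low with none shared.

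Other mitochondrial genes were read from 9 lists, 1 of which also holds 12 of the member factors. Over the 248 tested genes of these lists that are no member, 19 rose (7.66%) and 5 fell (2.02%), against 5.32% and 7.85% of all genes. Without light damage 1 and 2 the counts were 1 (Sqstm1) and 1 (Esrrb), where 135 of all 17253 genes rose and 268 fell. Of the 19, 4 were carriers and channels of the mitochondrial membranes. Vdac1, the main pore of the outer membrane, had a mean of 527 ± 10.2 CPM in light damage, against 454 ± 17.1 CPM in control (± SD, n = 5 per group), and a log2 fold change of 0.22 without overlap (edgeR adjusted p = 0.0174). Slc25a4, which exchanges ADP for ATP, and Ucp2, an uncoupling protein relative, also rose, by log2 fold changes of 0.21 and 0.67 (edgeR adjusted p = 0.0317 and 0.0492). Ucp2 had a log2 fold change of 0.40 without light damage 1 and 2 (edgeR adjusted p = 0.190), and its call was also lost with the replicate block (edgeR adjusted p = 0.174), with GC content and length trends removed (edgeR adjusted p = 0.0554) and in 7 of 10 fits with 1 library removed. Among 77 mitochondrial ribosomal proteins 5 rose and 0 fell, with a median log2 fold change of 0.10, a share of calls near that over all genes. Sqstm1, the selective autophagy receptor p62, and Phb, a prohibitin, were the 2 of 19 genes of mitochondrial dynamics and mitophagy that rose, by 0.33 and 0.23 (edgeR adjusted p = 0.00370 and 0.0276).

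The remaining lists had 1 or 2 calls each, all higher. They were Pcx and Suclg1 among 21 genes of pyruvate and TCA cycle enzymes, Etfa and Coq9 among 18 of electron carriers and ubiquinone synthesis, Hspe1 and Chchd2 among 15 of chaperones and proteases, Uqcc2 among 36 assembly factors that are no member, and Hsd17b10 among 31 of mitochondrial DNA copying, transcription and RNA handling. Tfam, which packages and transcribes mitochondrial DNA, had a log2 fold change of 0.19 and did not pass (edgeR adjusted p = 0.0726). It is named after its value was seen.

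The 5 that fell were all in the list of 18 transcriptional regulators of mitochondrial gene programs, in which 0 rose, against 7.85% lower and 5.32% higher over all genes. Esrrb, an estrogen-related receptor expressed in rods, stood at 436, 418, 301, 386 and 416 CPM in light damage libraries 1 to 5 and at 638, 598, 486, 653 and 641 CPM in control libraries 1 to 5. The groups did not overlap, and the log2 fold change was -0.62 (SE 0.10, edgeR adjusted p = 0.00262). Gabpb2, a partner of the ETS factor GABPA, had a log2 fold change of -0.47 (edgeR adjusted p = 0.00761), Pprc1, a PGC-1 related coactivator, of -0.37 (edgeR adjusted p = 0.00968) and Ppard, a nuclear receptor for fatty acids, of -0.22 (edgeR adjusted p = 0.0273). Sirt1, a deacetylase, had a log2 fold change of -0.20 (edgeR adjusted p = 0.0371) and is named after its value was seen. The summed level of the list was 1085 to 1277 CPM in light damage and 1391 to 1542 CPM in control, without overlap. Without light damage 1 and 2, Esrrb remained called, with a log2 fold change of -0.71 (edgeR adjusted p = 0.0182), while Gabpb2, Pprc1 and Ppard did not pass (edgeR adjusted p = 0.0708, 0.0933 and 0.151). Leaving out 1 library at a time, Ppard was called in 4 of 10 fits. Nrf1 and Ppargc1a, looked at for their roles and outside the naming rule, had log2 fold changes of 0.00 and -0.16 and did not pass (edgeR adjusted p = 0.981 and 0.158).

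Markers of other cells moved with the groups, and their part in the subunit results was not tested. Their calls are given with all libraries included, and were not counted without light damage 1 and 2. The summed Müller glia level was 7980 CPM in light damage 1 and 7459 CPM in light damage 2. Of 12 Müller glia genes 5 rose, of 12 bipolar cell genes 6 rose and of 12 amacrine cell genes 4 rose, with none lower, against 5.32% higher and 7.85% lower over all genes. The summed level of the amacrine genes was 1615 to 1767 CPM in light damage and 1355 to 1572 CPM in control, without overlap, and those of Müller glia genes (5671 to 7980 CPM in light damage, 4308 to 5733 CPM in control) and bipolar genes (1634 to 1854 CPM in light damage, 1410 to 1714 CPM in control) overlapped. Of 20 rod genes 1 rose (Sag) and 1 fell (Grk1), and of 10 cone genes 1 fell (Arr3). Most photoreceptor genes leaned lower: 4 of 20 rod genes and 3 of 10 cone genes had a log2 fold change above 0. Their medians were -0.12 and -0.07. Above 0 were 12 of 12 Müller glia, 11 of 12 bipolar and 11 of 12 amacrine genes, against 50.3% of all genes. Of 11 microglia and macrophage genes 1 rose (Csf1r), with a summed level of 64.4 to 144 CPM in light damage and 47.9 to 69.3 CPM in control. Of 9 lens genes 3 rose, of 6 genes of ciliary body and iris 2 rose, of 5 tested skeletal muscle genes 1 fell (Atp2a1), and no gene passed in the lists of retinal pigment epithelium, pericytes, endothelium and red blood cells. No listed marker found in the table was at 0 in every library.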

How the data were processed

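Retinal RNA of 10 libraries was analysed, 5 of light damage and 5 of control, grouped by their titles. Values in the deposited table are whole-number counts for 19999 genes. Per the submitters' processing notes the tools were Bowtie2, RSEM (1.3.1) and DESeq2 (1.4.5), with GRCm39 as the build. Not stated in the sources used here are whether the counts are rounded estimates, how reads that match several genes were divided, and whether strand was kept.

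Symbols, transcript lengths and sequences came from GENCODE M21 and RefSeq (GRCm38), and 19892 identifiers had a symbol. Genes were kept by filterByExpr, scaled by TMM and compared by the edgeR 4.0.16 quasi-likelihood test in R 4.3.3, with no term but group, and p-values were adjusted by Benjamini-Hochberg across all 16852 genes tested. Figures used Python 3.11.15 and matplotlib 3.10.9. CPM values are TMM scaled, and levels per kilobase use the longest annotated transcript. Members matched to other genes were compared by exact 50-base windows on both strands. The members and lists were chosen with earlier results of these data known. No pair of libraries agreed within sampling noise (chi-square per degree of freedom of at least 5.76).

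Genes named are all mitochondria-encoded members, called nuclear-encoded members, a list of 16 major subunits, paralogous pairs and up to 4 genes of lowest p per list, of which 1 is not reported here. Alternatives were DESeq2 1.42.0, limma-voom (limma 3.58.1), other scalings and filters, no robust dispersion, a replicate block, and each library left out in turn. Fits without light damage 1 and 2, with GC content and length trends removed (lowess, span 0.3), and with chromosome 1 copies summed were added after seeing the data. The steps were tested on simulated data.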

Additional observations from a re-analysis of the deposited data

Results flagged for a closer look

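In a group of 5 libraries a value was singled out when its gap to the nearest other library, divided by the range of the group, was above Dixon's critical value for 5 values. Chance does this for about 1 in 20 groups, and 8 of 170 groups examined (4.71%) had such a value. Of the 8, 5 were in mitochondria-encoded mRNAs. mt-Co3 stood at 300.1 CPM in light damage 4, with the next library at 102 CPM, and at 279 CPM in control 1, with the next at 78.9 CPM. mt-Nd3 stood at 65.4 CPM in control 1, with the next at 26.2 CPM. mt-Nd4l stood at 42.1 CPM in light damage 5, with the next at 20.9 CPM. mt-Atp8 stood at 27.5 CPM in control 4, with the next at 3.37 CPM. All but mt-Atp8 share over 90% of their windows with a nuclear copy. The part that the copies play in these single values was not tested.

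The other 3 were all in light damage libraries and small in size. Atp5g2 was high in light damage 3, at 65.8 CPM with the next at 61.2 CPM. Cox8a was low in light damage 5, at 158 CPM with the next at 185 CPM, and Ndufv3 was low in the same library, at 90.3 CPM with the next at 97.2 CPM.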

How the results depend on the processing

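No alternative called a mitochondria-encoded subunit or a lower nuclear-encoded one. The 22 nuclear-encoded calls became 37 with library totals alone and 40 with the replicate block, where 6.81% and 8.49% of all genes rose, against 5.32%. They became 5 to 40 when 1 library was left out, where 2.34% to 7.91% of all genes rose. Without light damage 1 and 2 the count was 1, where 0.782% of all genes rose. The other settings gave 19 to 31, with DESeq2 highest, and 4.62% to 6.71% of all genes rose in them. The labels do not say whether replicate numbers pair the libraries, so they were not treated as pairs. With each gene's group mean subtracted from its log2 CPM, what remained correlated at 0.0522 to 0.316 between same-numbered libraries. Of these 5 pairs, 1 was over 0.1. Listed genes that are no member gave 31 higher with library totals alone and 31 with the replicate block (19 without it), 7 to 40 with 1 library left out and 1 without light damage 1 and 2. The lower ones numbered 3 with library totals alone, 3 to 6 with 1 library left out and 1 without light damage 1 and 2. Over all genes, 912 of 16852 fell with library totals alone, against 1323 in the main fit. With 1 library left out, between 723 (of 17044, without light damage 1) and 1644 (of 17029, without control 1) fell. Without light damage 1 and 2, 268 of 17253 fell. All genes shifted by a median log2 of 0.03 with library totals alone.

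No called gene turned direction. Uncalled ones did, as log2 fold changes with 1 library left out: mt-Cytb -0.054 to 0.17, mt-Nd1 -0.015 to 0.24, mt-Nd5 -0.20 to 0.00, mt-Nd4 -0.11 to 0.13, mt-Nd2 -0.12 to 0.14, mt-Nd6 -0.21 to 0.091, mt-Co3 -0.48 to 0.97, mt-Atp6 -0.007 to 0.60, mt-Nd3 -0.35 to 0.14 and Ndufs7 -0.033 to 0.096. mt-Nd4 and mt-Nd2 were at 0.0234 and 0.0266 with limma-voom, 0.0145 and 0.0107 with library totals alone, 0.0206 and 0.0237 with the replicate block, and 0.0093 and 0.0016 with GC content and length trends removed, where Ndufs7 was at -0.045. Without light damage 1 and 2, mt-Cytb was at -0.0114 and Ndufa4l2 at -0.29. With chromosome 1 copies summed, mt-Co3 was at -0.0873 and mt-Atp6 at -0.15. The cause was not tested. Depth limits Cox6a2, Cox6b2, Cox8b, Cox7a1, Ndufa4l2, mt-Atp8, Ndufaf6 and Sdhaf1, which average under 10 CPM in both groups.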
